A study of Mus musculus with 52 samples.

Results

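Gene expression in brain RNA of mice given kainic acid (KA) was compared with that of untreated mice, in the first of the study's brain cohorts treated with KA. The comparison used 6 of the 52 samples of the series, chosen by their place in 1 deposited table: 3 libraries from C57BL/6 mice treated with KA and 3 from untreated C57BL/6 mice. Both groups carry the tissue label of a KA-induced model of temporal lobe epilepsy (TLE), and no other allele or agent is named for either. Brains were flash frozen, RNA was taken with Trizol, and 1 ug of it went into each TruSeq library. Nothing used here states the brain region, the sex and age of the mice, the dose and route of KA or the time after it. Whether each library is a separate mouse is not stated either, so the tests weigh differences against a spread that may be only technical. Values are TPM, transcript levels corrected for transcript length and library total. Sequencing depth is unknown, since only TPM were used.

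KA activates the kainate class of glutamate receptors, sets off seizures and is known to kill vulnerable neurons. In brain so injured, microglia, the resident phagocytes, take up debris and turn on lysosomal and secreted proteins, and astrocytes raise intermediate filaments such as Gfap. Interferons signal through a complex of transcription factors that includes Irf9 and binds a short element before the start of interferon-stimulated genes, and Irf7, itself induced this way, carries the response further.

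Untreated 3 stood apart from the other libraries and is treated as such throughout. Transcripts of genes under 1 kb were higher in it than in the other untreated libraries, by a median of 0.50 on the log2(TPM + 1) scale, and those of genes over 6 kb were lower, by a median of -1.23. Among the KA libraries the same medians stayed between -0.06 and 0.07. Mitochondrial genes made up 9.01% of its TPM against 13.1% to 16.4% in the other 5 libraries, and ribosomal protein genes 8.49% against 4.72% to 5.47%. Fold changes and counts of calls are therefore given with all 6 libraries and with untreated 3 left out, and where a single value stands it is from all 6. Neuronal, glial and myelin genes were present in every library, as the brain label requires. Snap25, a synaptic vesicle fusion protein, was at 1007 to 1742 TPM, the astrocyte glutamate transporter Slc1a2 at 128 to 474 TPM and the myelin protein Mbp at 2523 to 4677 TPM.

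**Figure D1:**
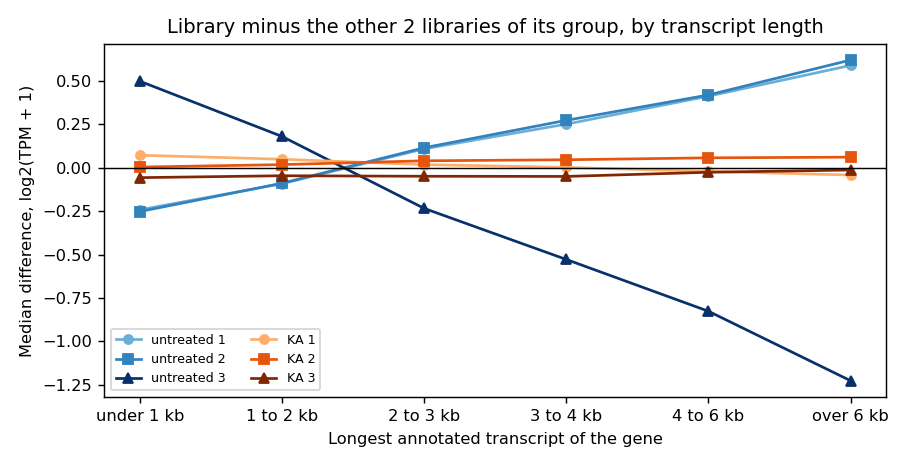
Median difference between each library and the other 2 libraries of its group, on the log2(TPM + 1) scale, for genes grouped by their longest annotated transcript. Untreated 3 runs from 0.50 under 1 kb to -1.23 over 6 kb, the other untreated libraries mirror it because it is 1 of the 2 they are compared with, and the KA lines stay near 0.

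With all 6 libraries, 28 of 15331 genes passed limma's test (0.183%), 24 higher (0.157%) and 4 lower (0.0261%) in KA. Without untreated 3, 352 of 15177 passed (2.32%), 229 higher (1.51%) and 123 lower (0.81%), and 25 of the 28 were among them. Counts of calls in the gene lists below stand beside these shares. The 28 calls fell to 1, 0, 0 and 0 without untreated 1, untreated 2, KA 1 or KA 2, and there were 136 without KA 3. At an unadjusted p under 0.05, limma gave 2069 genes with all 6 libraries, and 1929, 1046 and 883 where none passed. Of the genes tested, 74.3% had a log2 fold change above 0 with all 6 libraries and 60.8% without untreated 3, with medians of 0.25 and 0.06. Every KA library lay above every untreated library for 22.7% of genes, and below for 4.64%.

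Genes induced by interferon were higher in KA brain. Of 40 tested interferon-stimulated genes, 10 passed with all 6 libraries and 24 without untreated 3, all higher, against 0.157% and 1.51% of all genes. In each of the 40 every KA library lay above every untreated library, against 22.7% of all genes (28.4% without untreated 3). For 8 of them this was fixed by the level needed for testing, since they were under 1 TPM in every untreated library, and it held for the other 32, against 21.6% of all genes not so fixed. Their median log2 fold change was 2.26 with all 6 libraries and 2.20 without untreated 3, beside 0.25 and 0.06 for all genes.

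The promoters of 5 genes are shown, 4 from this list and Phf11b, which rose with all 6 libraries but is not on it, because the element that the complex with Irf9 binds can be read in them. They are the 150 bases before the RefSeq start, 5′ to 3′ on the gene's strand, in build GRCm38.p6. Capitals mark GAAA, any 2 bases and GAAA again, or on the other strand TTTC, any 2 bases and TTTC, and a longer run of capitals holds overlapping matches.
Bst2: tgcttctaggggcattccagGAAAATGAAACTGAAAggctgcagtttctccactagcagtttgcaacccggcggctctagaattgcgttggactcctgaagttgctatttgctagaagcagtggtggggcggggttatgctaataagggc
Ifit1: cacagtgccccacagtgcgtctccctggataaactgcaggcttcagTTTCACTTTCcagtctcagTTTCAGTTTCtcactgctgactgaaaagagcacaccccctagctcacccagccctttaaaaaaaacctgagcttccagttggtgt
Ifit3: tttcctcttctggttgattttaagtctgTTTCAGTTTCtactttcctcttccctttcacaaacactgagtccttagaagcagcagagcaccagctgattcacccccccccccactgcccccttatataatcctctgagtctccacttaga
Isg15: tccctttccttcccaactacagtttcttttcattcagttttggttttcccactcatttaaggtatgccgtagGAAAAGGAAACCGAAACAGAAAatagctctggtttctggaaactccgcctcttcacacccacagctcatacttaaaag
Phf11b: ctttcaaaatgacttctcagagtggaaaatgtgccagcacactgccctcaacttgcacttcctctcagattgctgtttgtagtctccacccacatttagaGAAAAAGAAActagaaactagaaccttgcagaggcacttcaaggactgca
These stretches lie at chr8:71537473-71537622 (minus strand) for Bst2, chr19:34640739-34640888 (plus) for Ifit1, chr19:34583379-34583528 (plus) for Ifit3, chr4:156200819-156200968 (minus) for Isg15 and chr14:59341331-59341480 (minus) for Phf11b. The matches begin 130 and 124 bases before the start in Bst2, 104 and 85 in Ifit1, 78, 72 and 66 in Isg15, and 50 in Phf11b. In Ifit3 the one shown begins at 122, and another lies at 156, beyond the stretch printed.

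Over the 250 bases before the start, on both strands, 5 of the 18 matched genes among the 24 higher with all 6 libraries held these letters (27.8%). The same share was 28 of 180 (15.6%) for the genes higher without untreated 3 and 7 of 88 (8.0%) for those lower. It was 15 of 31 (48.4%) for the interferon-stimulated list, and 3.5% for all 27025 genes of the RefSeq table. Of the 18 matched genes higher with all 6 libraries, 7 were on the interferon-stimulated list, and 4 of these held the letters (57.1%). Phf11b, not on that list, completed the 5. A match is a description of letters, not of binding.

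Ifi27l2a, an interferon-induced mitochondrial protein, was at 5.44, 4.47 and 3.24 TPM in untreated 1 to 3 and at 194, 185 and 104 TPM in KA 1 to 3. Its log2 fold change was 4.88 ± 0.29 (SE, limma adjusted p = 0.00538), and 4.72 ± 0.28 without untreated 3 (limma adjusted p = 0.0173). Family members of similar sequence may share its reads. The KA libraries did not overlap the untreated ones, and KA 3 was the lowest of the 3.

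Ifit3, an antiviral protein that binds Ifit1, was at 7.52, 6.89 and 4.91 TPM in untreated brain and 84.7, 107 and 42.2 TPM in KA brain. The log2 fold change was 3.32 ± 0.36 (limma adjusted p = 0.0319; 3.17 without untreated 3, limma adjusted p = 0.0381). Ifit1 and Ifit3b, of the same family of similar sequences that could share reads, rose by 2.85 and 2.84 (2.78 and 2.80 without untreated 3). Oasl2, a relative of the antiviral oligoadenylate synthetases, went from 3.12, 3.44 and 1.88 TPM to 42.2, 59.7 and 23.7 TPM (log2 3.42 ± 0.36, limma adjusted p = 0.0319; 3.23 ± 0.36 without untreated 3, limma adjusted p = 0.0381). Bst2, which tethers budding viruses to the cell, was at 10.2, 11.3 and 18.3 TPM against 148, 160 and 69.1 TPM (log2 3.10 ± 0.37, limma adjusted p = 0.0419; 3.34 ± 0.36 without untreated 3, limma adjusted p = 0.0381). For Ifit3, Oasl2 and Bst2 the lowest KA library was KA 3, and it was above the highest untreated one.

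Other members past the test with all 6 libraries were Lgals3bp, a secreted glycoprotein, at 4.02, Ifi204, a DNA-binding protein, at 2.93, Rtp4, a receptor chaperone, at 2.67 and Xaf1, an apoptosis regulator, at 2.20 on the log2 scale, and all of them passed without untreated 3 too. Phf11b rose by 2.40 and H2-Q6, a class I histocompatibility gene in a family of near-identical copies, by 2.71; neither was on the list, and both passed in either fit. Isg15, the ubiquitin-like modifier, was at 4.56, 3.19 and 8.19 TPM in untreated brain and 60.9, 61.3 and 28.6 TPM in KA brain. It passed without untreated 3 (log2 3.33 ± 0.35, limma adjusted p = 0.0381) and missed with it (3.02 ± 0.40, limma adjusted p = 0.0524).

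**Figure D2:**
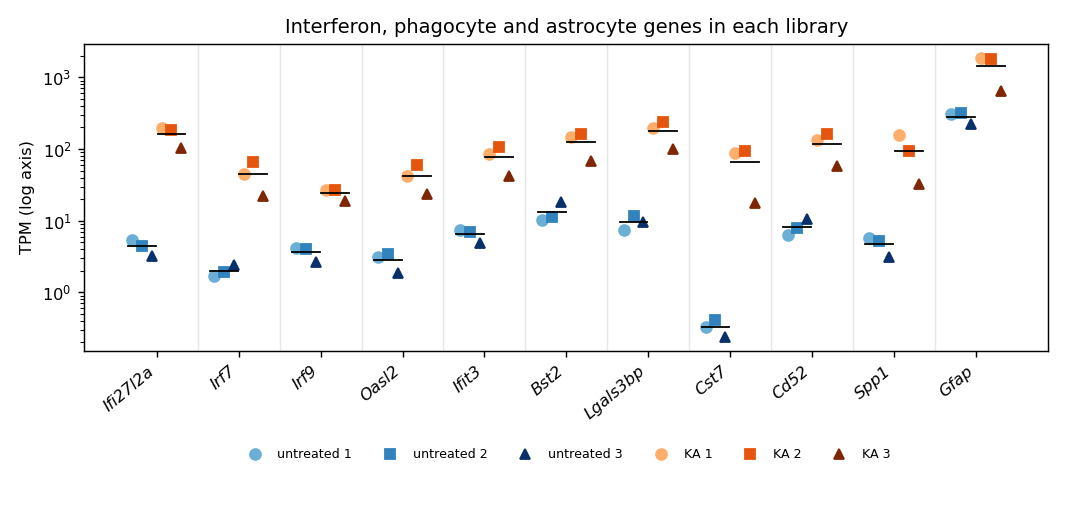
Level in TPM (log axis) of 11 named genes in each of the 6 libraries; bars are group means. For all 11 genes the KA libraries lie above the untreated ones, and KA 3 is the lowest KA library. For Cst7 it is at 17.4 TPM against 88.6 and 93.0 TPM. Cst7 was under 1 TPM in every untreated library, so the level needed for testing fixed its separation.

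Upstream of these genes, the interferon pathway itself was read by role. The ligand Ifnb1 was listed at 0 in all 6 libraries and Ifng at 0 in 5, with 0.08 TPM in KA 3. Of the receptor genes Ifnar1, Ifnar2, Ifngr1 and Ifngr2, 0 passed the test with or without untreated 3, and 2 of 4 were higher at an unadjusted p under 0.05 with all 6 libraries, against 11.6% of all genes. Of 8 tested sensors, which detect foreign or misplaced nucleic acid, 0 passed with all 6 libraries and 2 without untreated 3. The 2, Tlr3 and Zbp1, were higher, against 1.51% of all genes. With all 6 libraries, limma gave 6 of the 8 higher at an unadjusted p under 0.05, against 11.6% of all genes. Zbp1, which binds Z-form nucleic acid, was at 0.31, 0.13 and 0.60 TPM in untreated brain and 8.96, 17.7 and 4.35 TPM in KA brain (log2 2.91 ± 0.45, limma adjusted p = 0.0588; 3.04 ± 0.50 without untreated 3, limma adjusted p = 0.0479).

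Of 8 transcription factors of the pathway, 2 passed with all 6 libraries, Irf7 and Irf9, and 3 without untreated 3. All were higher, against 0.157% and 1.51% of all genes. Irf7 was at 1.70, 1.93 and 2.38 TPM in untreated and 45.2, 66.5 and 22.4 TPM in KA libraries (log2 3.81 ± 0.39, limma adjusted p = 0.0319; 3.89 ± 0.42 without untreated 3, limma adjusted p = 0.0381). Irf9 was at 4.17, 4.0 and 2.67 TPM against 26.4, 27.0 and 19.0 TPM (log2 2.44 ± 0.24, limma adjusted p = 0.0319; 2.29 ± 0.17 without untreated 3, limma adjusted p = 0.0249). Irf3, which acts before interferon is made, overlapped between the groups at 17.1 to 26.1 against 20.9 to 26.3 TPM.

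Antigen presentation genes on the list had positive medians in both fits. Of 15 tested, 0 passed with all 6 and 4 without untreated 3, all higher, against 1.51% of all genes. The 4 were of class I: B2m, H2-K1, H2-D1 and H2-T23. The median log2 fold changes were 2.14 and 2.09. B2m, the shared light chain of class I molecules, was at 231, 216 and 236 TPM in untreated and 1272, 1572 and 682 TPM in KA libraries (log2 2.28 ± 0.30, limma adjusted p = 0.0519; 2.31 ± 0.33 without untreated 3, limma adjusted p = 0.0431). Of the class II group, 0 of 4 tested passed in either fit. Cd74, the class II invariant chain, ranged from 15.7 to 77.9 TPM in KA and 3.29 to 5.03 TPM in untreated libraries. Ciita, the class II transactivator, was under 1 TPM in every library and was not tested.

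Genes of activated phagocytes were higher as well. Of 20 tested, 2 passed with all 6 libraries, Cst7 and Cd52, and 6 without untreated 3, adding Ctss, Lgals3, Lyz2 and Spp1. All were higher, against 0.157% and 1.51% of all genes. The median log2 fold changes were 2.08 and 2.14. Cst7, an inhibitor of lysosomal cathepsins, was at 0.33, 0.41 and 0.24 TPM in untreated and 88.6, 93.0 and 17.4 TPM in KA libraries (log2 5.34 ± 0.61, limma adjusted p = 0.0379; 5.29 ± 0.71 without untreated 3, limma adjusted p = 0.0408). Cd52, found on the surface of leukocytes, was at 6.26, 8.0 and 10.5 TPM against 134, 165 and 57.9 TPM (log2 3.59, limma adjusted p = 0.0346, and 0.0665 with median-ratio scaling; 3.76 ± 0.43 without untreated 3, limma adjusted p = 0.0381). For both, KA 3 was the lowest KA library and lay above every untreated one. For Cst7 the lack of overlap was fixed by the level needed for testing, since it was under 1 TPM in every untreated library.

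Spp1, or osteopontin, was at 5.72, 5.21 and 3.10 TPM in untreated and 156, 95.3 and 32.7 TPM in KA libraries. Its log2 fold change was 3.85 ± 0.55 (limma adjusted p = 0.0538), and 3.63 ± 0.60 without untreated 3 (limma adjusted p = 0.0479). Lyz2, the macrophage lysozyme, and Mpeg1, a pore-forming lysosomal protein, also passed without untreated 3, with log2 fold changes of 3.17 and 3.0, and missed the threshold with it (limma adjusted p = 0.0538 and 0.0519). The lipid receptor Trem2 and its adaptor Tyrobp did not pass in either fit. Trem2 was at 27.7, 35.6 and 37.0 TPM in untreated and 225, 229 and 73.5 TPM in KA libraries (log2 2.20 ± 0.44, limma adjusted p = 0.0944; 2.28 ± 0.50 without untreated 3, limma adjusted p = 0.0723). Lpl, lipoprotein lipase, was the only tested member whose KA libraries all lay below the untreated ones, at 12.8, 10.6 and 12.1 against 17.2, 19.6 and 19.9 TPM (log2 -0.63 ± 0.18, limma adjusted p = 0.194; -0.59 ± 0.12 without untreated 3, limma adjusted p = 0.0652); it was named after its values were seen.

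Homeostatic microglial genes were also higher. Of 15, 0 passed with all 6 libraries and 2 without untreated 3, both higher, against 1.51% of all genes. The calcium-binding Aif1 was among them, and the medians were 1.61 and 1.37. Tmem119, which marks microglia, was at 15.2, 19.1 and 17.4 TPM in untreated and 42.9, 56.9 and 27.9 TPM in KA libraries (log2 1.21 ± 0.27, limma adjusted p = 0.121; 1.21 ± 0.29 without untreated 3, limma adjusted p = 0.0795). P2ry12, the purinergic receptor of resting microglia, was at 46.8, 42.5 and 19.1 against 83.9, 86.0 and 58.3 TPM (log2 1.13 ± 0.35, limma adjusted p = 0.233; 0.74 ± 0.18 without untreated 3, limma adjusted p = 0.081). In bulk RNA, more or fewer cells of a type and more or less RNA per cell cannot be told apart. Whether the phagocyte list differed from the homeostatic list was not tested.

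Markers of blood-borne immune cells were low, though both lists summed higher in every KA library than in every untreated one. Of 10 genes of T and B lymphocytes, 1 reached the level needed for testing, and Cd3e was at 0 to 0.33 TPM. The list summed to 3.65 to 6.56 TPM in untreated and 6.94 to 14.3 TPM in KA libraries. Of 8 genes of neutrophils and monocytes, 2 were tested, and Ngp, Camp and Ly6g were listed at 0 in all 6 libraries. These 8 summed to 1.5 to 3.02 TPM in untreated and 5.52 to 27.4 TPM in KA libraries. Ccr2, the monocyte chemokine receptor, was at 0.09 to 0.11 TPM in untreated and 0.34 to 1.09 TPM in KA libraries. Ly6c2 was at 0.22 to 0.36 TPM against 3.11, 12.1 and 0.62 TPM, highest in KA 2. The part of such cells in the immune results was not tested.

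Complement genes followed the microglial ones. Of 15 tested, 0 passed with all 6 libraries and 5 without untreated 3, all higher, against 1.51% of all genes. Among the 5 were C1qa, C1qb, C1qc and C4b. C1qa, part of the trigger of the classical pathway, was at 84.7, 86.5 and 143 TPM in untreated and 581, 693 and 254 TPM in KA libraries (log2 2.19 ± 0.40, limma adjusted p = 0.0848; 2.44 ± 0.41 without untreated 3, limma adjusted p = 0.0484). C4b was at 7.93, 7.21 and 11.6 TPM against 73.7, 100.9 and 30.5 TPM (log2 2.67 ± 0.44, limma adjusted p = 0.0677; 2.86 ± 0.47 without untreated 3, limma adjusted p = 0.0479). C3, the central component, ran from 1.19 to 15.9 TPM in KA and 0.05 to 0.97 TPM in untreated libraries and passed in neither fit.

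Among chemokines and cytokines, 1 of 27 tested genes passed with all 6 libraries (0 with median-ratio scaling) and 3 without untreated 3. All were higher, against 0.157% and 1.51% of all genes. Ccl12, a monocyte attractant, was at 0.90, 1.79 and 1.81 TPM in untreated and 24.1, 53.8 and 17.1 TPM in KA libraries (log2 3.57 ± 0.43, limma adjusted p = 0.0419; 3.66 ± 0.47 without untreated 3, limma adjusted p = 0.0392). Cxcl10, which interferon induces, was at 0.38, 0.35 and 0 TPM against 31.8, 50.5 and 8.08 TPM (log2 4.34 ± 0.61, limma adjusted p = 0.053; 4.19 ± 0.69 without untreated 3, limma adjusted p = 0.0479), and Ccl3 passed at 2.83 without untreated 3 (2.80 with all 6 libraries, limma adjusted p = 0.0588). Tnf and Il6 were at or under 0.32 TPM in every library. Il1b was at 0.26 to 0.86 TPM in untreated and 0.94 to 1.31 TPM in KA libraries and was not tested.

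Astrocyte genes lay higher in KA brain, with few calls. Gfap was at 312, 319 and 221 TPM in untreated and 1868, 1828 and 638 TPM in KA libraries, so KA 3 was above all untreated libraries and well below KA 1 and KA 2 (log2 2.21 ± 0.43, limma adjusted p = 0.0902; 2.03 ± 0.47 without untreated 3, limma adjusted p = 0.076). Of 12 pan-reactive genes, 0 passed with all 6 libraries and 1 without untreated 3, against 1.51% of all genes. It was Cxcl10, already counted among the chemokines, and the medians over the list were 1.87 and 1.83. Vim, another intermediate filament, was at 41.0, 48.7 and 40.6 TPM against 220, 255 and 92.6 TPM (log2 1.98 ± 0.37, limma adjusted p = 0.088; 1.93 ± 0.42 without untreated 3, limma adjusted p = 0.0714). Of 8 tested genes of the A2 type, 0 passed in either fit and the medians were 0.52 and 0.44.

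Of 12 genes of the A1 type, 0 passed with all 6 libraries and 2 without untreated 3, H2-D1 and H2-T23, with medians of 1.96 and 1.86. Both are also on the antigen presentation list, and Gbp2 and Iigp1 are on the interferon list, so these lists are not separate evidence. Of 16 homeostatic astrocyte genes, 0 passed with all 6 libraries and 1 without untreated 3. That gene was Kcnj10, the potassium channel that buffers firing, at 66.0, 63.7 and 29.2 TPM in untreated and 115, 136 and 99.2 TPM in KA libraries (log2 1.20 ± 0.33, limma adjusted p = 0.178; 0.83 ± 0.13 without untreated 3, limma adjusted p = 0.0479). Aldh1l1, which marks astrocytes, was at 22.0 to 24.1 TPM against 29.4 to 43.2 TPM (log2 0.63 ± 0.19, limma adjusted p = 0.213; 0.67 ± 0.16 without untreated 3, limma adjusted p = 0.0804).

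Few genes of lipid handling passed the test. Apoe, the main lipid carrier of brain, was at 3746, 3866 and 6195 TPM in untreated and 11012, 11109 and 5764 TPM in KA libraries, so the groups overlapped only through untreated 3 and KA 3 (log2 0.99 ± 0.33, limma adjusted p = 0.269; 1.23 ± 0.30 without untreated 3, limma adjusted p = 0.0849). Of 20 lipoprotein genes, 0 passed with all 6 libraries and 1 without untreated 3, higher, against 1.51% of all genes. That gene was Apoc1, the neighbour of Apoe (log2 1.77 ± 0.52, limma adjusted p = 0.205, and 2.26 ± 0.39 without untreated 3, limma adjusted p = 0.0497). With all 6 libraries, limma gave 9 of the 20 higher at an unadjusted p under 0.05, against 11.6% of all genes. In 11 of the 20 every KA library lay above every untreated one, against 22.7%. Plin2, the coat protein of lipid droplets, was at 7.30, 4.95 and 5.55 TPM in untreated and 15.1, 18.5 and 9.01 TPM in KA libraries (log2 1.09 ± 0.30, limma adjusted p = 0.181; 1.06 ± 0.31 without untreated 3, limma adjusted p = 0.115). Its groups did not overlap.

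Of 17 tested lipid droplet genes, 0 passed in either fit, and 3 had an unadjusted p under 0.05 with all 6 libraries, all higher (against 11.6% of all genes). Their median was 0.23 with all 6 libraries, near the 0.25 of all genes, and -0.06 with median-ratio scaling. Of 23 genes of cholesterol synthesis, 0 passed in either fit and 0 had an unadjusted p under 0.05 with all 6 libraries, and their median was 0.10, or -0.03 without untreated 3. Of 18 genes of fatty acid use, 0 passed in either fit. Adora2a, an adenosine receptor, was at 1.60, 1.80 and 2.20 TPM in untreated and 3.55, 4.04 and 1.80 TPM in KA libraries, which overlapped (log2 0.49 ± 0.28, limma adjusted p = 0.498; 0.57 ± 0.28 without untreated 3, limma adjusted p = 0.292). Of 11 adenosine genes, 0 passed in either fit. With all 6 libraries, limma gave 5 of the 11 higher at an unadjusted p under 0.05, against 11.6% of all genes.

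KA 3 was the lowest KA library for most immune and reactive astrocyte genes. It was lowest for 39 of 40 interferon-stimulated genes, 19 of 20 phagocyte genes, 15 of 15 homeostatic microglial genes and 10 of 12 pan-reactive genes, against 43.7% of all genes tested. Over these lists the median ratio of KA 3 to the mean of KA 1 and KA 2 was 0.463, 0.386, 0.508 and 0.381, against 0.967 for all genes. Low values in KA 3 were not confined to these lists. KA 3 was also lowest for 15 of 16 S100 and annexin genes, 16 of 19 cell cycle genes and 21 of 26 matrix genes. The same held for 13 of 13 oligodendrocyte and myelin genes, but for only 1 of 13 general neuronal genes. In that order the ratios were 0.633, 0.75, 0.847, 0.809 and 1.129. Of the 136 calls without KA 3, 130 were higher and 6 were lower.

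**Figure D3:**
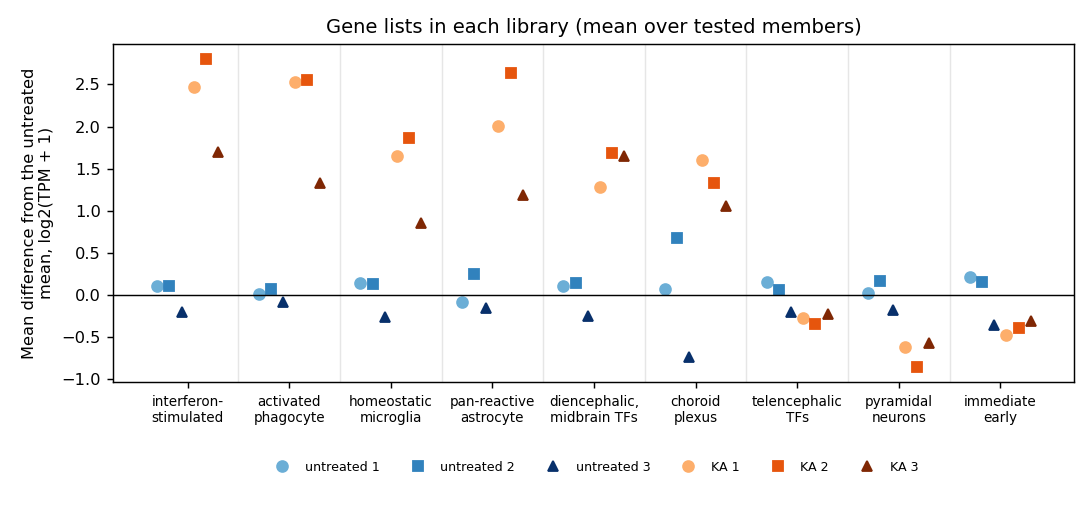
Mean difference of each library from the untreated mean, on the log2(TPM + 1) scale, over the tested members of 9 gene lists. In the interferon, phagocyte, microglia and astrocyte lists KA 3 sits between the other KA libraries and the untreated ones. In the list labelled diencephalic and midbrain transcription factors it sits at 1.65, beside KA 2 at 1.69.

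Genes that mark the thalamus, the rest of the diencephalon and the midbrain, most of them transcription factors, also differed between the groups. Tcf7l2, a Wnt effector kept on in thalamic neurons, was at 3.29, 3.34 and 1.98 TPM in untreated and 21.3, 23.2 and 19.5 TPM in KA libraries (log2 2.55 ± 0.23, limma adjusted p = 0.0254; 2.37 ± 0.12 without untreated 3, limma adjusted p = 0.0147). Shox2, a homeobox gene of thalamus and midbrain, was at 0.36, 0.34 and 0.44 TPM against 6.09, 7.88 and 7.76 TPM (log2 2.57 ± 0.20, limma adjusted p = 0.0194; 2.60 ± 0.17 without untreated 3, limma adjusted p = 0.0237). Mab21l1 was at 0.66, 0.27 and 0.18 TPM against 4.31, 6.10 and 6.30 TPM (log2 2.26 ± 0.24, limma adjusted p = 0.0319; 2.16 ± 0.22 without untreated 3, limma adjusted p = 0.0381). For Tcf7l2, Shox2 and Mab21l1 KA 3 was close to the other KA libraries.

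A list of 28 such genes was drawn up after these values were seen, and no test is given over it. Of 17 tested members, 3 passed with all 6 libraries and 10 without untreated 3, all higher. For 10 of the 17 the groups could not overlap, because they were under 1 TPM in every untreated library and were tested only through the KA libraries. Of the other 7, 5 were higher in every KA library than in every untreated one. The share was 21.6% of all genes not so fixed, but a list drawn from these values cannot be weighed against it. KA 1 was the lowest KA library for 11 of the 17, and KA 3 for 4. Otx2, a factor of midbrain, thalamus and choroid plexus, was at 2.42, 2.92 and 0.64 TPM against 9.27, 13.8 and 8.98 TPM (log2 2.04 ± 0.38, limma adjusted p = 0.0854; 1.65 ± 0.21 without untreated 3, limma adjusted p = 0.0392). Gata3 was at 0 to 0.08 TPM in untreated and 1.78 to 3.92 TPM in KA libraries, and Pax7, of the dorsal midbrain, at 0.02 to 0.06 against 1.24 to 2.10 TPM. En1, Lmx1b and Gata2 overlapped between the groups. A separate list of 6 thalamic neuron genes, chosen earlier, was mixed, with medians of 0.84 and 1.01. In either fit 1 passed, Tcf7l2. The groups did not overlap for 2, Tcf7l2 and Slc17a6, both higher, against 22.7% of all genes. KA 3 was the lowest KA library for 5 of those 6, and its median ratio to the mean of KA 1 and KA 2 was 0.643. Slc17a6, the vesicular glutamate transporter of thalamic and midbrain neurons, was at 16, 8.30 and 2.49 TPM against 27.4, 36.8 and 53.3 TPM (log2 2.24 ± 0.57, limma adjusted p = 0.154; 1.62 ± 0.34 without untreated 3, limma adjusted p = 0.0682).

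Markers of hippocampal pyramidal neurons lay lower in KA brain, and the lists for cortex and striatum were mixed. Of 6 cortical neuron genes, 2 were higher and 1 was lower in every KA library than in every untreated one, with medians of 0.51 and 0.29. Of 7 tested striatal genes 3 were higher and 0 were lower, with medians of 0.46 and 0.40. Over all genes 22.7% were higher and 4.64% lower in this way, so these small counts are not read as a regional change. Of 9 dentate granule neuron genes, 0 passed with all 6 libraries and 2 without untreated 3, both lower, against 0.81% of all genes. Their medians were 0.04 and -0.41 over the list. Wfs1, which is rich in CA1 pyramidal neurons, was at 100.6, 111 and 55.9 TPM in untreated and 39.0, 35.7 and 30.7 TPM in KA libraries (log2 -1.27 ± 0.28, limma adjusted p = 0.115; -1.57 ± 0.12 without untreated 3, limma adjusted p = 0.0249). Spink8, a protease inhibitor of hippocampal pyramidal cells, was at 65.9, 79.6 and 109 TPM against 32.1, 21.7 and 31.8 TPM (log2 -1.53 ± 0.25, limma adjusted p = 0.0669; -1.34 ± 0.19 without untreated 3, limma adjusted p = 0.0427). Neurod6, a factor of cortical and hippocampal excitatory neurons, was at 220, 229 and 141 TPM against 119, 86.4 and 126 TPM (log2 -0.81 ± 0.24, limma adjusted p = 0.212; -1.03 ± 0.16 without untreated 3, limma adjusted p = 0.0476). Of 10 markers of hippocampal pyramidal neurons, 0 passed with all 6 libraries and 3 without untreated 3, all lower, against 0.81% of all genes. In 8 of 10 every KA library lay below every untreated one, against 4.64% of all genes. Without untreated 3 this held for 9 of 10, against 14.5%.

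Dlx1, of forebrain interneurons, was at 27.2, 26.0 and 25.7 TPM against 14.6, 12.6 and 17 TPM (log2 -0.81 ± 0.18, limma adjusted p = 0.118; -0.82 ± 0.14 without untreated 3, limma adjusted p = 0.0479). Tdo2, a tryptophan-degrading enzyme of dentate granule cells, was at 11.6, 11.9 and 10.3 TPM against 2.80, 2.35 and 3.86 TPM (log2 -1.63 ± 0.23, limma adjusted p = 0.053; -1.69 ± 0.19 without untreated 3, limma adjusted p = 0.0381). Prox1, which defines granule neurons, overlapped at 8.90 to 37.9 against 31.5 to 35.8 TPM. Of 11 telencephalic factors, a list also made after the values were seen, 0 passed with all 6 libraries and 4 without untreated 3, all lower. The share of all genes was 0.81%, but a list made this way cannot be weighed against it. Neurod6 is 1 of the 4 and was also counted among the pyramidal neuron markers.

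**Figure D4:**
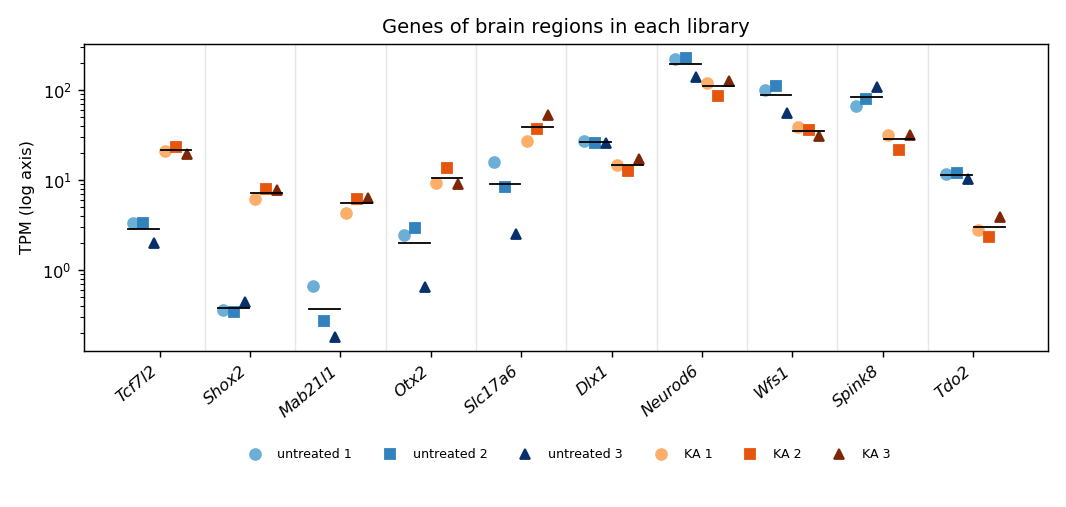
Level in TPM (log axis) of 10 genes that mark brain regions in each of the 6 libraries; bars are group means. Tcf7l2, Shox2, Mab21l1, Otx2 and Slc17a6 are higher and Dlx1, Neurod6, Wfs1, Spink8 and Tdo2 lower in every KA library than in every untreated one. For Shox2 and Mab21l1, under 1 TPM in every untreated library, the level needed for testing fixed this. The 10 genes were named for passing the test, small p or no overlap, so their separation is not separate evidence.

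The same region genes varied within the other brain tables, which were normalized separately. Tcf7l2 ran from 11 to 60.2 TPM in the 3 untreated libraries of the second KA cohort and from 9.91 to 84.6 TPM in the 3 untreated libraries of the CNO set, all above the untreated libraries here. Shox2 ran from 3.13 to 24.8 and from 7.47 to 27.6 TPM in those libraries. Ifi27l2a was at 2.42 ± 0.91 TPM (SD, n = 3) in untreated brain of the second KA cohort, near the level here, and at 3.85 ± 1.95 TPM (n = 4) in its KA brain. Levels across tables were not tested. In single libraries here other regional genes stood out: the hypothalamic peptides Oxt, Avp and Pmch were at 13.2, 29.4 and 6.13 TPM in KA 1 and at most 0.73, 1.04 and 1.35 TPM elsewhere, and Agrp was at 11.2 TPM in untreated 2 and at most 0.39 TPM elsewhere. The part of the region genes in the other results was not tested.

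Choroid plexus and ependymal genes had high medians and few calls. Ttr, the thyroxine carrier made by choroid plexus, was at 382, 1061 and 133 TPM in untreated and 2199.8, 1581 and 1454 TPM in KA libraries (log2 2.18 ± 0.68, limma adjusted p = 0.228; 1.43 ± 0.42 without untreated 3, limma adjusted p = 0.121). Of 16 genes, 0 passed with all 6 libraries, 1 (Otx2) passed without untreated 3, and 11 were higher in every KA library, against 22.7% of all genes. The medians were 1.21 and 0.99. The list summed to 237 to 1441 TPM in untreated and 1929 to 2848 TPM in KA libraries.

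Immediate early genes, which neuronal firing turns on quickly, lay lower in KA brain. Of 22 tested, 0 passed with all 6 libraries and 9 without untreated 3, all lower, against 0.81% of all genes. The median log2 fold changes were -0.38 and -0.64. At an unadjusted p under 0.05, 8 of 22 were lower and 1 was higher with all 6 libraries, against 1.87% of all genes lower. Without untreated 3, 16 of 22 were lower, against 7.1%, so the count depended on that library. Egr1 was at 99.7, 82.1 and 51.8 TPM in untreated and 33.6, 34.7 and 40.8 TPM in KA libraries (log2 -1.03 ± 0.26, limma adjusted p = 0.146; -1.30 ± 0.12 without untreated 3, limma adjusted p = 0.0381). Nr4a1, an orphan nuclear receptor, was at 49.3, 50.2 and 34.4 TPM against 20.9, 19.7 and 24.8 TPM (log2 -0.98 ± 0.21, limma adjusted p = 0.107; -1.16 ± 0.11 without untreated 3, limma adjusted p = 0.0381). Junb was at 78.2, 68.4 and 83.3 TPM against 45.6, 44.1 and 46.2 TPM, and passed without untreated 3 at -0.68 ± 0.08 (limma adjusted p = 0.0384) and not with it (-0.74 ± 0.14, limma adjusted p = 0.0915).

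Fos, the classic activity marker, overlapped at 9.30 to 23 against 9.68 to 16.6 TPM. Atf3, a stress-induced member, was at 0.77 to 2.23 TPM in untreated and 5.57, 7.08 and 1.60 TPM in KA libraries. Rasd1, a small G protein that glucocorticoids induce, fell past the test with all 6 libraries, the only one of the 4 lower genes that is not a predicted gene. It was at 60.2, 66.6 and 58.5 TPM in untreated and 25.5, 20.7 and 26.1 TPM in KA libraries (log2 -1.33 ± 0.16, limma adjusted p = 0.0462; -1.36 ± 0.12 without untreated 3, limma adjusted p = 0.0381). Of 15 tested genes that glucocorticoids induce, Rasd1 alone passed in either fit.

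The other 3 lower genes were the predicted short transcripts Gm48573, Gm37385 and Gm27905, named after their values were seen because they complete the count. They were at 22.3, 32.2 and 21.5 TPM, 42.2, 14.2 and 12.9 TPM, and 8.06, 4.70 and 9.28 TPM in untreated libraries and listed at 0 in all KA libraries. Gm27624 was the reverse, listed at 0 in untreated and at 48.8, 16.4 and 21.8 TPM in KA libraries. An exact 0 in such a table can be a failed estimate.

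Some genes of dendrites and neuropeptides passed only once untreated 3 was left out. Itpka, a kinase of dendritic spines, was at 222, 254 and 290 TPM in untreated and 114, 95.8 and 124 TPM in KA libraries (log2 -1.19 ± 0.17, limma adjusted p = 0.053; -1.10 ± 0.12 without untreated 3, limma adjusted p = 0.0381). Ddn, or dendrin, was at 1179, 1367 and 849.8 TPM against 549.9, 538 and 714 TPM (log2 -0.90 ± 0.22, limma adjusted p = 0.144; -1.09 ± 0.14 without untreated 3, limma adjusted p = 0.0408). Among neuropeptides, Cck was at 1402, 1414 and 2530 TPM in untreated and 860, 684 and 894 TPM in KA libraries, and passed without untreated 3 at -0.80 ± 0.13 (limma adjusted p = 0.0476) and not with it (-1.08 ± 0.26, limma adjusted p = 0.142). Gal, or galanin, passed in the other direction (log2 1.33 ± 0.34, limma adjusted p = 0.155; 1.64 ± 0.26 without untreated 3, limma adjusted p = 0.047), from 0.98, 0.72 and 2.45 TPM to 6.81, 3.73 and 4.10 TPM.

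For receptors and channels the direction of the median turned with untreated 3, in which long transcripts were low. For 20 glutamate receptor genes it was 0.36 with all 6 libraries and -0.11 without untreated 3, for 14 GABA receptor genes 0.39 and -0.11, for 34 ion channel genes 0.31 and -0.13, and for 13 general neuronal genes 0.10 and -0.10. Of these, 0 passed with all 6 libraries. Without untreated 3, 4 of the 20 glutamate receptor genes passed and were lower, Gria1, Gria2, Grin1 and Grin2b, against 0.81% of all genes. Some of them were named after their values were seen to complete the count. In the same fit 2 ion channel genes, 1 general neuronal gene and 0 GABA receptor genes passed, all lower. With all 6 libraries Gria1 and Grin1 were at -0.18 and -0.31, and Gria2 and Grin2b had the opposite sign, at 0.34 and 0.18. Gria2, which sets the calcium permeability of AMPA receptors, was at 186, 198 and 33.9 TPM in untreated and 140, 131 and 143 TPM in KA libraries (log2 0.34 ± 0.64, limma adjusted p = 0.772; -0.48 ± 0.07 without untreated 3, limma adjusted p = 0.0436). Median-ratio scaling, which took the median of all genes from 0.25 to -0.02, put the glutamate receptor median at 0.06.

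**Figure D5:**
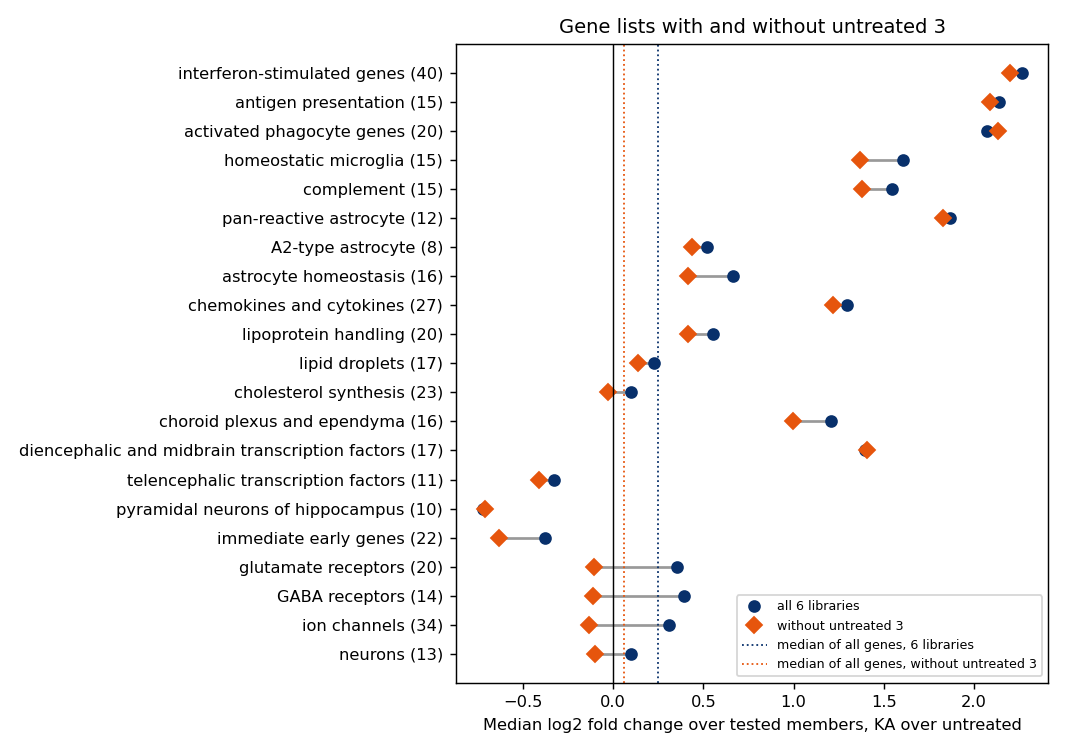
Median log2 fold change over the tested members of 21 gene lists (number in brackets) with all 6 libraries (circles) and without untreated 3 (diamonds); dotted lines are the medians of all genes, 0.25 and 0.06. The interferon list moves from 2.26 to 2.20, while the receptor, channel and neuron lists cross 0.

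Matrix genes held 1 call with all 6 libraries among 26 tested. Sparc, a secreted protein that binds collagen, was at 144, 148 and 128 TPM in untreated and 541, 616 and 405 TPM in KA libraries (log2 1.87 ± 0.19, limma adjusted p = 0.0319; 0.0647 with median-ratio scaling; 1.81 ± 0.17 without untreated 3, limma adjusted p = 0.0381). Timp2, an inhibitor of metalloproteinases, passed without untreated 3 at 0.99 ± 0.14 (limma adjusted p = 0.0427) and not with it (1.23 ± 0.25, limma adjusted p = 0.0952). Of the remaining calls, Rprm, a cell cycle arrest gene, was at 34.4, 28.5 and 26.6 TPM against 85.6, 81.5 and 76.4 TPM (log2 1.42 ± 0.16, limma adjusted p = 0.0346; 1.34 ± 0.10 without untreated 3, limma adjusted p = 0.0249). Patj, a tight junction scaffold, was at 2.03, 2.30 and 1.53 TPM against 7.75, 8.87 and 9.17 TPM (log2 1.71 ± 0.21, limma adjusted p = 0.0462, and 0.0742 with the length trend removed; 1.60 ± 0.14 without untreated 3, limma adjusted p = 0.0381). For both, the KA libraries lay close together, with KA 3 not set apart from KA 1 and KA 2.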

How the data were processed

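The authors deposited TPM per gene for this cohort. Library totals of 978422 to 988800 fit that unit. Per the submitters' processing notes, the tools were HISAT2, StringTie and RSEM and the build mm10, with no version or role stated. The table held 55487 genes, of which 99.38% matched GENCODE M21 for position and transcript length. TPM depends on every gene of a library, so a high mitochondrial or ribosomal share lowers the rest.

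Here log2(TPM + 1) was tested with limma 3.58.1 in R 4.3.3, using its trended variance. A gene entered when 3 or more libraries reached 1 TPM. P-values were Benjamini-Hochberg adjusted over all genes tested, with a threshold of 0.05. Fold changes are on this scale, which understates changes of low genes. The procedure was tested on simulated data. Libraries were grouped by title and matched to columns by name.

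Members and lists were chosen with earlier results of these data known, and 2 region lists after the values here were seen. Genes named were Gfap, Apoe, Plin2, Adora2a and Rasd1, every call with all 6 libraries that is not a predicted gene or pseudogene, the 10 largest rises and falls without untreated 3 among genes of above-median level and no overlap, up to 5 members of smallest p per list, and members that define a cell type. Named after their values were seen were Agrp, Atf3, Avp, C3, Camp, Cd74, Ciita, En1, Fos, Gata2, Gbp2, Gria1, Gria2, Grin2b, Ifnar1, Ifnar2, Ifnb1, Ifng, Ifngr1, Ifngr2, Iigp1, Il1b, Il6, Irf3, Lmx1b, Lpl, Ly6c2, Ly6g, Ngp, Oxt, Pax7, Pmch, Tlr3, Tnf, Trem2, Tyrobp and the predicted genes. Alternatives left out each library, removed the length trend, changed scaling, pseudocount or filter, left out mitochondrial genes, weighted libraries or added a replicate block. Some genes are not reported here.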

Additional observations from a re-analysis of the deposited data

How the results depend on the processing

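With all 6 libraries 28 genes passed. Leaving out 1 library gave 0 to 352 calls. There were 139 with the length trend removed, 67 without mitochondrial genes, 44 with a pseudocount of 0.1, 2372 with sample quality weights (untreated 3 was weighted 0.048), 2 without a filter on low values and 32 (24 higher, 8 lower) with median-ratio scaling. Deviations from the group mean were correlated between libraries of the 2 groups to look for pairing. Same-numbered libraries gave -0.056, -0.011 and -0.081, and the others ran from -0.066 to 0.072. With 3 libraries a group, and untreated 3 set apart, these values cannot settle whether the libraries were paired. A replicate block gave 2 calls, and 1 with the length trend also removed. Of named genes, Plekhg1, on the thalamic list and not called with all 6 libraries (log2 fold change 0.38), ran from -0.26 without untreated 3 to 0.73 without untreated 2, and turned to -0.046 with the length trend removed, with or without the block, and -0.17 with sample quality weights. Of the 124 genes refitted under the alternatives no other turned. Gria2 (0.34), Grin2b (0.18), Snap25 (0.10) and Ifngr2 (0.004), fitted only with and without untreated 3, turned to -0.48, -0.60, -0.14 and -0.12 without it. The causes were not tested. With 3 libraries a group and unknown depth, small changes could not be resolved.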
